A study of Mus musculus with 2 samples.

Results

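The ATP-binding cassette (ABC) transporter genes of the mouse were followed in RNA from the adrenal gland. They were taken as the protein-coding genes of the GENCODE M21 annotation whose symbols begin with Abca to Abcg and a number, and 50 genes met this rule among 55536 annotated genes, of which 22015 are nuclear and protein-coding. They fall into 7 subfamilies: 16 genes in A, 10 in B, 10 in C, 4 in D, 1 in E, 3 in F and 6 in G. The tissue came from 2 adult males, 8 to 10 months old, of B6CASTF1/J, an F1 hybrid between C57BL/6J and CAST/EiJ mice that carries 1 genome of each parent. Replicate 1 is animal 2 and replicate 2 is animal 4 of the submitters' numbering, each library was made from 300 ng of total RNA with a strand-keeping kit, and no treatment or other group is named. All values describe whole glands, in which fewer cells of a type and less RNA per cell cannot be told apart.

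ABC proteins bind and hydrolyse ATP at a conserved cassette, and most use it to move lipids, steroids, drugs, peptides or metal complexes across a membrane. Subfamily A mainly handles lipids, B holds the multidrug P-glycoproteins and mitochondrial exporters, C exports organic anions or regulates potassium channels, D serves the peroxisome and lysosome, and G moves sterols and drugs. The E and F proteins lack membrane domains and act in translation. In the adrenal gland the family is known for the P-glycoproteins that can export steroids and for cholesterol efflux.

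Abcb1b dominated the family. This gene encodes 1 of the 2 mouse P-glycoproteins that together do the work of the human drug exporter ABCB1, and it stood at 1458 TPM in replicate 1 and 1419 TPM in replicate 2 (a share of all transcripts, corrected for transcript length). Its expected counts, the reads assigned by the quantifier, were 125592 and 136940, or 0.419% and 0.403% of all annotated counts. By mean TPM, 1438 ± 27.6 (SD, n = 2 animals), it held rank 7 among the nuclear coding genes of the gland, with ranks 9 and 8 in the single libraries. Both libraries were alike for this gene, as the SD was small beside the mean.

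The gene (ENSMUSG00000028970.9) lies on chromosome 5 of mm10, from 8798147 to 8866315 on the plus strand. Its paralogue Abcb1a (ENSMUSG00000040584.8), the P-glycoprotein of the blood-brain barrier and gut, lies upstream on the same strand from 8660077 to 8748575. Abcb4, which flips phosphatidylcholine into bile, follows downstream from 8893717 to 8959231. Because reads from such close paralogues can be confused, their sequences are shown for the part where the pair cannot be separated and the part where it can. Over the coding sequence, 3828 bases in each, the Abcb1a-201 and Abcb1b-201 transcripts were identical at 88.2% of 3816 aligned positions, with the longest identical run 338 bases. Among 1414 stretches of 90 bases that lie within 1 exon of both, 224 were identical, and the one shown is that nearest the start of the coding sequence. It lies in exon 12 of both, at chr5:8702153-8702242 in Abcb1a and chr5:8824473-8824562 in Abcb1b (GENCODE M21 transcripts on mm10, plus strand), and the capitals mark codons of the Walker A motif, the loop that holds the phosphates of ATP:
Abcb1a-201, exon 12: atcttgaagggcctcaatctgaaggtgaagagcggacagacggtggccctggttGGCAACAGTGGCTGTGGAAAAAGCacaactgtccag
Abcb1b-201, exon 12: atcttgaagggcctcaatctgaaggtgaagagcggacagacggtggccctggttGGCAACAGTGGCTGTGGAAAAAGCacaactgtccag
All 90 bases are identical on this reference, so a read confined to this stretch fits both genes. The lowest identity, 61 of 90 bases, was reached by 5 overlapping stretches in exon 16, near the middle of the coding sequence, and again the one nearest the start is shown. It lies at chr5:8714894-8714983 in Abcb1a and chr5:8827333-8827422 in Abcb1b, and the capitals mark the 29 positions at which the pair differs:
Abcb1a-201, exon 16: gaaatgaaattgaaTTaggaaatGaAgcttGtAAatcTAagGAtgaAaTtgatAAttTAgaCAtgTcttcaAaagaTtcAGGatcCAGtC
Abcb1b-201, exon 16: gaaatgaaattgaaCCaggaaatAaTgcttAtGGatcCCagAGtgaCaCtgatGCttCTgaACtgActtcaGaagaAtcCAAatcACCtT
On the reference, a read from this stretch carries many differences that assign it to 1 gene. The CAST/EiJ sequences of the pair were not compared. Counted over all annotated transcripts, 28.2% of the 31-base words of Abcb1a and 17.4% of those of Abcb1b also occurred in another gene, and 1186 words were common to the pair. Abcb4 stood further away, with 74.7% coding identity to Abcb1b and 76.3% to Abcb1a.

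The start region of Abcb1b is shown because the gene was so abundant. The 250 bases before its RefSeq start, which coincides with the GENCODE gene start, are at chr5:8797897-8798146 on the plus strand of GRCm38.p6, the assembly behind mm10. Capitals mark matches to CCAAT and GGGCGG (the core of a GC box), searched on both strands:
Abcb1b, 250 bases upstream: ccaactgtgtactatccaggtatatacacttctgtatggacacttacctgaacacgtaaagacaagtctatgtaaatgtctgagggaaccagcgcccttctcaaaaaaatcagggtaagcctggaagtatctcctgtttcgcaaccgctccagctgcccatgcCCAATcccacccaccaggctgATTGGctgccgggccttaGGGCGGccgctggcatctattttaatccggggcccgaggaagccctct
CCAAT matched 87 bases upstream on the plus strand and 66 bases upstream on the minus strand, GGGCGG matched 48 bases upstream, and TATAAA had no match. The same letters occurred in 33.8% (CCAAT), 32.7% (GGGCGG) and 12.4% (TATAAA) of the 32851 RefSeq promoters of this length in the table, so these matches are common and describe only the letters.

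Among all members, 34 of 50 reached at least 1 TPM in both libraries, called detected here, against 56.3% of nuclear coding genes (12385 of 22015). Their median level was 11.6 TPM in replicate 1 and 14.1 in replicate 2, beside 12.6 and 13.7 for all detected coding genes. By mean TPM, 1 member lay above 100, 11 between 20 and 100, 11 between 10 and 20, 7 between 5 and 10, 4 between 1 and 5, and 16 below 1. In the order of mean level, the ranges of the 2 libraries overlapped in 29 of the 33 neighbouring pairs of detected members. The 4 breaks fell after Abcb1b, after Abcc5, after Abcf2 and after Abcb4, and other neighbours did not differ beyond their spread.

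**Figure D1:**
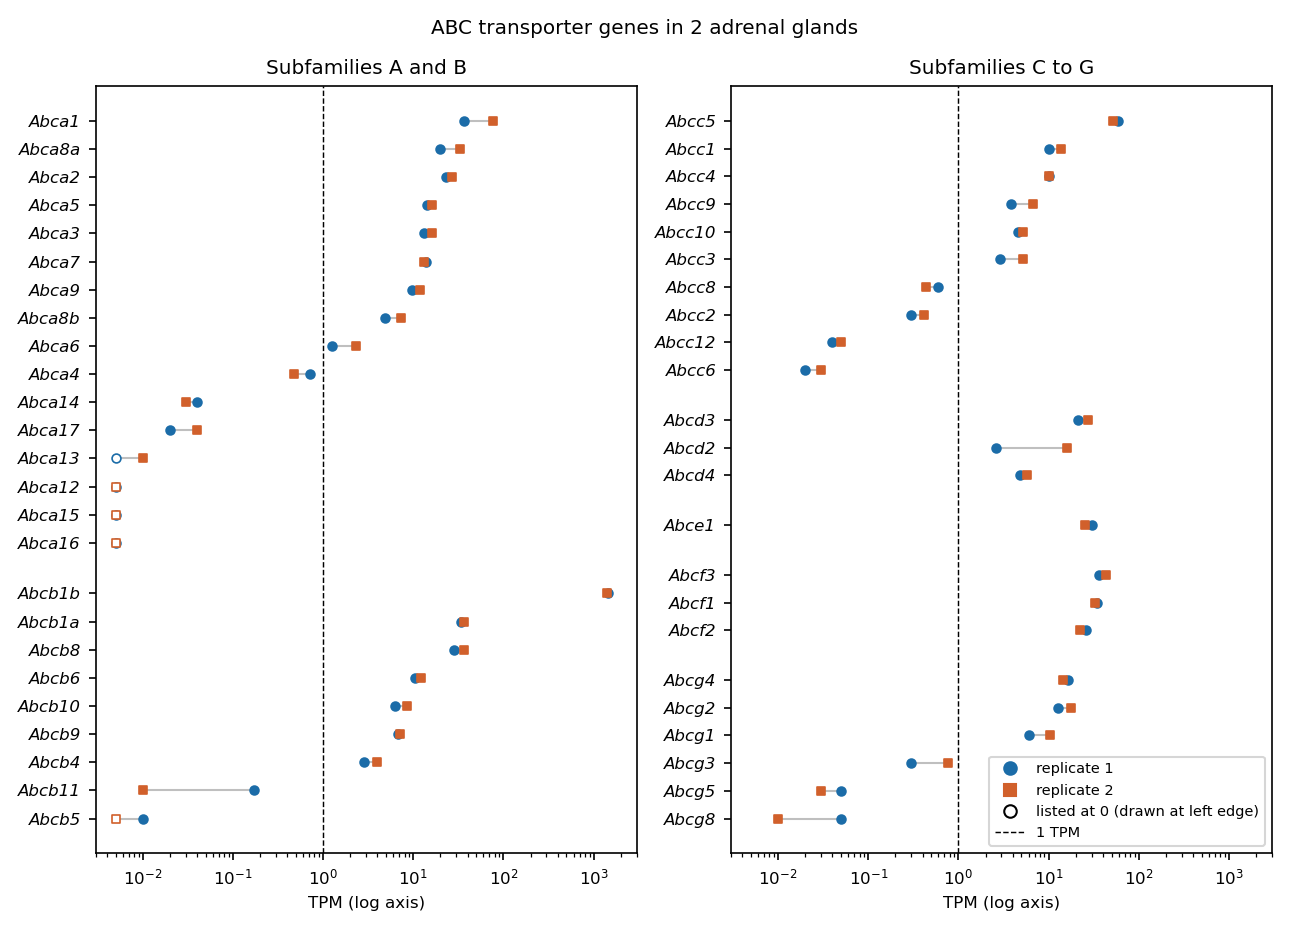
TPM of 48 of the 50 ABC transporter genes (log axis) in replicate 1 (circles) and replicate 2 (squares), ordered by mean level within subfamilies A to G, with grey lines joining the 2 values and open symbols for values listed at 0. Abcb1b stands far to the right at 1458 and 1419 TPM, the other 31 detected members drawn lie right of the dashed line at 1 TPM, and 16 lie left of it.

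Abcb1b alone made up 73.4% and 68.9% of the summed TPM of the family (71.1 ± 3.17%, SD, n = 2 animals). Its level was 24.9 and 18.7 times that of the next member in the same library, and 2.76 and 2.21 times the sum of all others, 529 and 641 TPM. The whole family summed to 1987 and 2059 TPM, which was 0.543% and 0.540% of the TPM on nuclear coding genes. Subfamily B accordingly took 78.4% and 74.5% of the family total, and subfamily A followed with 137 and 203 TPM. F summed to 97.4 and 98.2 TPM, C to 91.0 and 93.0, D to 38.8 and 62.1, G to 35.5 and 43.5, and E to 30.2 and 25.5.

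Abcb1a was present at a small part of that level, 34.2 and 36.8 TPM from 4213 and 5240 expected counts. The ratio of Abcb1b to Abcb1a was 42.6 in replicate 1 and 38.6 in replicate 2 (40.6 ± 2.85, SD, n = 2 animals). The posterior SD that the authors deposited beside each count, a measure of how firmly reads were assigned, was 0.540% and 0.487% of the count of Abcb1a. Across the family, 41 of 50 members had a posterior SD of 0 in both libraries. In the kallisto-format tables, made from the reads by a different quantifier, the ratio was lower, at 29.1 and 28.3. Abcb1b led Abcb1a by more than an order of magnitude by either quantifier.

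The ratio also differed between gene totals and full-length transcripts. By RSEM-format values the full-length transcript Abcb1b-201, 4306 bases long, took 92.6% and 94.0% of the counts of Abcb1b but 67.7% and 71.7% of its TPM. Transcripts under 1000 bases held 29.9% and 26.7% of the TPM, among them the 613-base Abcb1b-206 at 17.7% and 13.7%, and Abcb1b-203, a 690-base transcript annotated for nonsense-mediated decay, at 8.53% and 10.2%. TPM divides by length, so few reads on a short model weigh much. When only the full-length transcripts were compared, Abcb1b-201 to Abcb1a-201, the ratio was 32.5 and 28.7 by RSEM and 35.5 and 31.6 by kallisto. For Abcb1a, kallisto gave 43.4% and 34.2% of the TPM to the 494-base retained-intron transcript Abcb1a-203, and RSEM gave it 11.2% and 3.56%. The annotation also places 7330423F06Rik, an unverified transcript model, on the same strand over 301 bases of Abcb1b, at 107 and 74.2 TPM, which the tables list as a gene of its own.

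**Figure D2:**
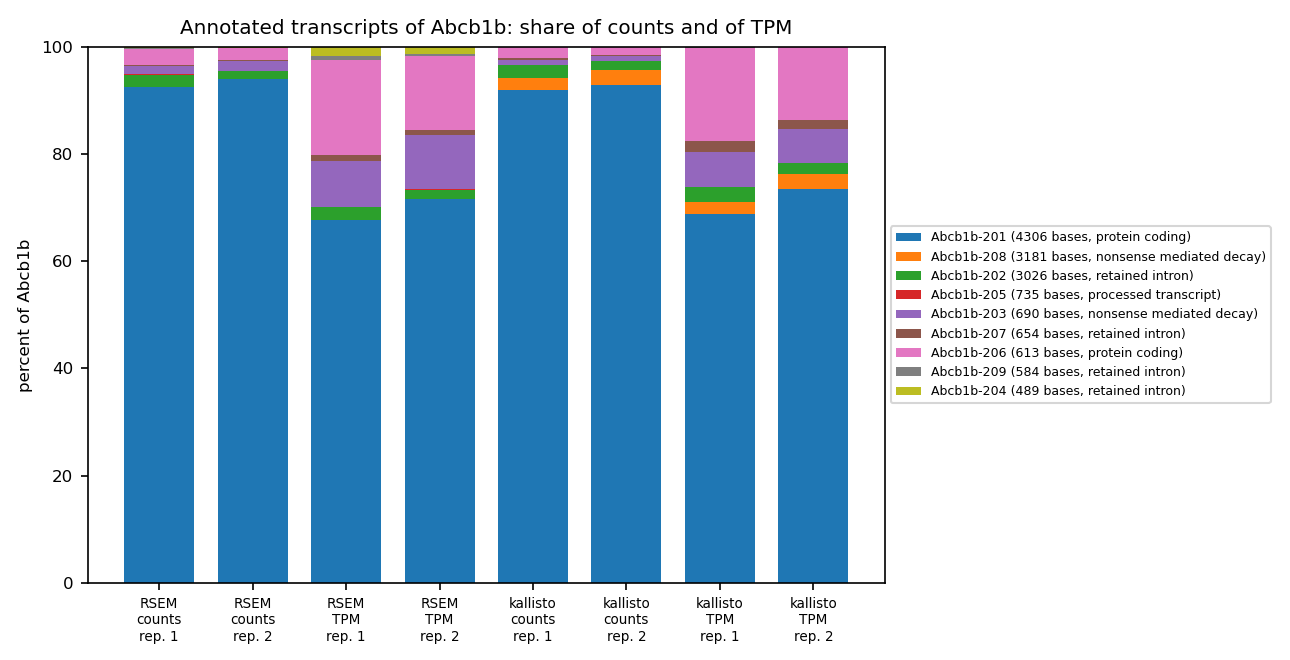
Share of Abcb1b (percent) given to each of its annotated transcripts, as counts and as TPM, by the RSEM-format and kallisto-format tables in replicates 1 and 2. Abcb1b-201 fills 92.6% and 94.0% of the RSEM counts but 67.7% and 71.7% of the RSEM TPM, where short transcripts take more room.

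The design offers no contrast other than that between the animals, so replicate 2 was set against replicate 1 for every gene. Folds are ratios of counts scaled by TMM, a trimmed-mean normalization, with an exact 95% interval that covers counting error only. Log2 ratios are of CPM + 1, where CPM are counts scaled to a common library total, and they understate the difference of low genes. A gene was called where its counts averaged 100 or more, its fold was 2 or more in either direction and its interval left out equality. No p-value was given, as each side is a single animal, which leaves no spread within a side to test against. Of the 50 members, 34 had enough counts and 1 of these was called, against 3.11% of nuclear coding genes (374 of 12021), and it was higher in replicate 2, as were 2.36% of coding genes. No member was called lower, a call made for 0.749% of coding genes. The same shares are the background for calls in the partner and marker lists below. The member called was Abcd2, described with its subfamily.

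Other members of subfamily B were modest. Abcb8, of the mitochondrial inner membrane, stood at 28.6 and 36.3 TPM, and Abcb6, a porphyrin transporter, at 10.5 and 12.2 TPM. Abcb9, the lysosomal peptide transporter, and Abcb10, which is needed for mitochondrial heme synthesis, lay between 6.23 and 8.61 TPM. Abcb4 reached 2.85 and 3.92 TPM. The bile salt pump Abcb11 and Abcb5 did not reach 1 TPM. In Abcb6, 52.1% of 31-base words were shared with Gm29253, an overlapping same-strand transcript with 0 and 7.77 counts, and the posterior SD of the Abcb6 count was 0.891% and 0.643% of it. Abcb10 overlaps Gm20388 on the opposite strand, which had 1078 and 124 counts, and the pair had no 31-base word in common. The 390 words that Abcb10 shared were all with Gm45890, an overlapping antisense transcript with 4 and 5 counts. Whether the counting used strand is not given in the sources used here.

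The 7 genes of iron and heme handling that were listed beside the mitochondrial exporters were all detected. The heme synthesis enzyme Alas1 led them at 878 and 635 TPM, the iron-sulfur scaffold Iscu had 257 and 245, and Fech, which inserts iron into the porphyrin ring, 54.0 and 61.2. None of them was called as differing.

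Subfamily A was led by Abca1, the pump that loads cholesterol and phospholipid onto apolipoprotein A1 (ENSMUSG00000015243.4, chromosome 4, 53030787 to 53159895, minus strand). It stood at 36.6 TPM in replicate 1 and 75.9 in replicate 2, from 10266 and 22708 counts, the higher value being in replicate 2. The chromosome 11 cluster on the minus strand holds Abca8b, Abca8a, Abca9, Abca6 and Abca5 side by side between 109932190 and 110337716. Abca8a stood at 19.6 and 32.8 TPM, Abca5 at 14.1 and 15.95, and Abca9 at 9.59 and 11.8. Abca8b had 4.88 and 7.35 TPM and Abca6 1.26 and 2.31. All 5 neighbours were thus detected in both glands, over a wide range of levels. Abca8a and Abca8b were 75.3% identical over their coding sequences, and 3.11% and 5.07% of their 31-base words occurred in another gene.

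Abca2, an endosomal and lysosomal lipid transporter, stood at 23.3 and 27.1 TPM. Abca3, known from surfactant lipid packing in the lung, and Abca7, involved in phospholipid export and phagocytosis, lay between 13.0 and 16.1 TPM. The other 7 members of subfamily A did not reach 1 TPM. Abca4, the retinal flippase, was highest of these at 0.72 and 0.47 TPM, and the chromosome 7 neighbours Abca14, Abca15 and Abca16 had 6 and 4, 0 and 0, and 0 and 0 counts. Abca12, a lipid transporter of the epidermis, was also at 0 in both libraries, which allows up to 3 counts, or 0.102 and 0.0868 CPM.

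Genes that act beside the cholesterol pumps were mostly present, with 11 of 12 detected. Scarb1, the receptor that takes cholesterol from high-density lipoprotein, had 1453 TPM in replicate 1 and 609 in replicate 2 and was called lower. Apoe, an acceptor of exported cholesterol, had 299 and 414 TPM, and the sterol regulator Srebf1 86.9 and 137. Of the 12, 10 had a log2 ratio above 0, as had 52.8% of coding genes averaging 10 or more counts. Mylip, which marks lipoprotein receptors for breakdown, was called higher at 2.24 and 4.93 TPM.

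Subfamily C was led by Abcc5, an exporter of cyclic nucleotides and other organic anions, at 58.5 and 51.2 TPM. Retained-intron transcripts made up 52.6% and 56.2% of that TPM, and the coding transcript with the most counts, Abcc5-202, reached 9.47 and 10.4 TPM. Abcc1, which exports glutathione conjugates, stood at 10.2 and 13.6 TPM, and Abcc4, an exporter of cyclic nucleotides and prostaglandins, at 10.13 and 10.15. Abcc9, the SUR2 subunit of ATP-sensitive potassium channels, had 3.78 and 6.71 TPM. Abcc3 and Abcc10 lay between 2.90 and 5.19 TPM. Abcc2, the canalicular anion pump, Abcc6, Abcc8 (the SUR1 subunit) and Abcc12 stayed below 1 TPM in both.

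The pore partners of the SUR subunits were low. Kcnj8 had 1.56 and 4.39 TPM and was called 2.63-fold higher in replicate 2 (95% counting interval 2.10 to 3.33), and Kcnj11 had 0.16 and 0.42 TPM. Among 14 organic anion uptake carriers, which bring in many substrates of the C pumps, 3 were detected, Slco3a1 at 17.6 and 16.3 TPM, Slco2b1 at 9.91 and 10.9, and Slco2a1 at 1.41 and 1.97. Of 4 sensors that control drug transporters, Nfe2l2 had 37.7 and 34.8 TPM and Ahr 1.54 and 2.09. Nr1i2 and Nr1i3, the receptors PXR and CAR, were at 0 counts in replicate 1 and under 0.1 TPM in replicate 2.

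All 4 members of subfamily D were detected. Abcd3, the abundant peroxisomal membrane protein PMP70, stood at 21.3 and 27.6 TPM. Abcd4, a lysosomal protein needed for cobalamin release, had 4.83 and 5.76 TPM. Abcd2, a peroxisomal carrier of long acyl chains (ENSMUSG00000055782.9, chromosome 15, 91145871 to 91191799, minus strand), had 2.60 TPM in replicate 1 and 15.9 in replicate 2. Its TPM was thus 0.122 times that of Abcd3 in replicate 1 and 0.578 times in replicate 2.

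Abcd2 was the member called as differing between the animals. Its counts were 214 in replicate 1 and 1835 in replicate 2, a fold of 7.31 (95% counting interval 6.34 to 8.46) and a log2 ratio of 2.71. On the TPM of its full-length coding transcript alone, the values were 1.35 and 11.0 by RSEM and 1.16 and 8.98 by kallisto. Fat cell markers moved in the same direction. All 7 white adipocyte markers were called higher in replicate 2, with Fabp4 at 62.1 and 572 TPM, Plin1 at 63.0 and 209 and Adipoq at 18.9 and 175, and the list summed to 181 and 1327 TPM. Of these, 1 averaged 100 counts only through replicate 2. The 5 brown adipocyte markers, of which 2 were detected in both libraries, summed to 26.9 and 282 TPM, with Cox8b at 16.2 and 102, Ucp1 at 0.14 and 80.6 and Cox7a1 at 10.1 and 48.6. All 5 were called higher, but 4 of them reached the required average only through replicate 2, where they were high, so this count adds no support. The part of fat cells in the Abcd2 difference was not tested.

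Of 7 peroxisomal fatty acid genes that work with the D transporters, all were detected. All had ratios above 1, as had 52.8% of coding genes averaging 10 or more counts. Scp2, a thiolase and lipid carrier, had 56.8 and 108 TPM, and the thiolase Acaa1a 41.5 and 57.5. Ehhadh was called, 2.25-fold higher (1.92 to 2.65), as were 2.36% of coding genes. Within subfamily D, Abcd3 had a fold of 1.16 and Abcd4 of 1.07, both far under that of Abcd2.

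The genes of the E and F proteins, which act on ribosomes, lay between 22.1 and 43.8 TPM as gene totals. Abce1, which splits ribosomes after termination, stood at 30.2 and 25.5 TPM. Abcf3 had 36.4 and 43.8 TPM, Abcf1, which binds initiation factor eIF2, had 34.8 and 32.4, and Abcf2 had 26.2 and 22.1. In Abcf3, transcripts under 1000 bases took 63.6% and 66.3% of the TPM. The 5 matched partners in ribosome recycling were detected, led by Gspt1 at 36.3 and 39.5 TPM, Etf1 at 36.8 and 38.6 and Hbs1l at 26.6 and 26.1, and none was called as differing.

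In subfamily G, Abcg4, a sterol transporter best known from the brain, had 16.3 and 14.6 TPM. Abcg2, the breast cancer resistance protein, had 12.7 and 17.6 TPM, and Abcg1, which exports cholesterol to high-density lipoprotein, had 6.10 and 10.5 (ENSMUSG00000024030.7, chromosome 17, 31057675 to 31117988, plus strand). Abcg3 had 0.30 and 0.76 TPM. Abcg5 and Abcg8, whose products pair to export plant sterols and cholesterol in gut and liver and whose genes overlap by 6710 bases on opposite strands of chromosome 17, had 2 and 2, and 3 and 1 counts. Both were at or under the floor of 3 counts, as were 7 of the 50 members in all.

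Some ABC proteins have other symbols. The antigen peptide transporter subunits Tap1, at 5.70 and 8.16 TPM, and Tap2, at 20.6 and 25.2, were detected, and the chloride channel Cftr was at 0 and 0.02 TPM. The 4 peptide-loading partners of Tap1 and Tap2 were detected, with B2m at 344 and 327 TPM, Calr at 311 and 258 and Pdia3 at 173 and 158, and none of them was called.

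At a lower bound of 1.5-fold, 5 of the 34 members with enough counts were higher in replicate 2, against 6.13% of coding genes (737 of 12021). None was lower, a call whose share of coding genes was not computed at this bound. Besides Abcd2, the members higher were Abca1 at 1.89-fold (1.84 to 1.93), Abcc3 at 1.63-fold (1.38 to 1.92), Abca8a at 1.57-fold (1.48 to 1.66) and Abcc9 at 1.52-fold (1.39 to 1.67). Abcg1, the partner of Abca1 in cholesterol export, stood just under that bound at 1.48-fold (1.35 to 1.63). Macrophage markers, from cells in which both sterol pumps are well known, summed to 221 and 356 TPM. A ratio above 1 was found in 9 of 10, against 52.8% of coding genes, and 1 of 10 was called higher, against 2.36%. Their leading genes were Lyz2 at 98.0 and 175 TPM, C1qb at 31.7 and 37.6 and C1qa at 27.4 and 35.9. Fibroblast and capsule markers summed to 131 and 235 TPM, with 2 of 5 called higher. The genes of this list with the highest mean TPM, whether called or not, were Dcn at 73.3 and 124 TPM, Col1a2 at 21.4 and 34.6 and Col3a1 at 13.0 and 36.3. Smooth muscle and pericyte markers did not move as 1 group. They summed to 128 and 86.0 TPM, a fall carried by the contractile genes Tagln, at 64.8 and 33.4, and Acta2, at 41.4 and 13.98, both called lower. The other 4 of 6 had ratios above 1, among them Myh11, also a contractile gene, so the contractile genes did not all fall. Rgs5 had 9.88 and 16.8 TPM, Pdgfrb 9.19 and 14.3, and Cspg4, called 3.53-fold higher (3.06 to 4.07), 1.58 and 5.59. The median log2 ratio of the list was 0.45. The part of these cells in the differences of Abca1, Abcg1, Abca8a, Abcc9 and Kcnj8 was not tested.

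Neither P-glycoprotein gene of the gland lay far from equality. Abcb1b had a fold of 0.930 (0.922 to 0.937) and Abcb1a 1.06 (1.02 to 1.10). The lowest folds belonged to Abcf2 at 0.771 (0.721 to 0.825), Abce1 at 0.794 (0.754 to 0.837) and Abcg4 at 0.830 (0.763 to 0.902). Over the 38 members that averaged 10 or more counts, the median log2 ratio was 0.12, beside 0.02 over 14660 coding genes. Ratios above 0 numbered 28 of 38, against 52.8% of coding genes. The interval lay above equality in 22 members, against 27.9% of coding genes, and below it in 8, against 24.4%.

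**Figure D3:**
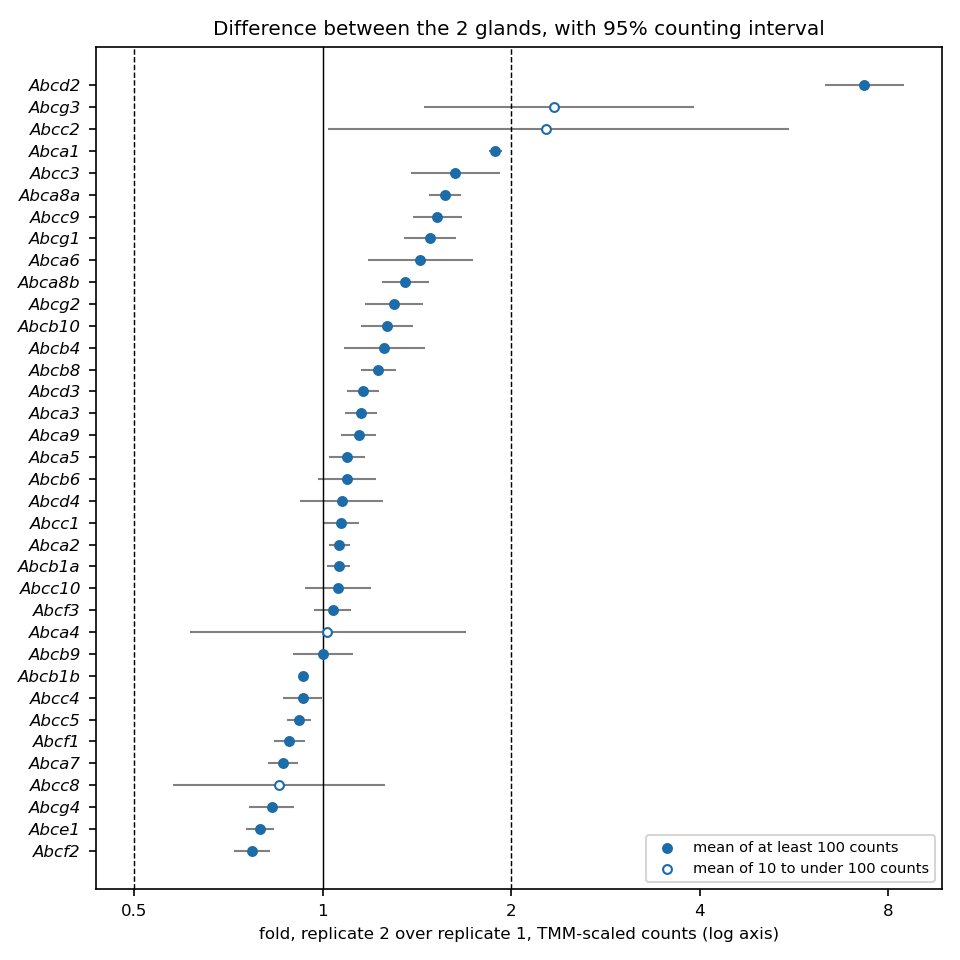
Fold of TMM-scaled counts, replicate 2 over replicate 1 (log axis), for 36 of the 38 members averaging 10 or more counts, with bars for the 95% counting interval, filled points for an average of 100 or more counts and open points for fewer. Abcd2 lies alone at 7.31, Abca1 follows at 1.89 among the filled points, and the lowest is Abcf2 at 0.771.

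Other marker lists covered the gland and its surroundings. Cortex markers were all detected and summed to 21350 and 18002 TPM (Star 6855 and 4897, Hsd3b1 5140 and 5325, Cyp11a1 3992 and 3192), with 6 of 6 at ratios below 1 and none called. Chromaffin markers summed to 3125 and 2226 TPM (Chga 1205 and 1004, Chgb 775 and 671, Th 514 and 256), with 2 of 6 called lower. Endothelial markers summed to 343 and 347 TPM (Plvap 92.8 and 89.7, Egfl7 79.9 and 81.0, Emcn 57.5 and 57.3) and erythroid markers to 1022 and 1715 (Hba-a1 518 and 853, Hbb-bs 464 and 786, Hbb-bt 33.8 and 65.5). No endothelial or erythroid marker was called. All 4 erythroid markers had ratios above 1 (median log2 ratio 0.68), against 52.8% of coding genes, and 2 of the 7 endothelial markers did. Liver markers summed to 14.4 and 14.5 TPM (Alb 7.38 and 8.40, Mup3 3.02 and 1.83, Apoa2 2.29 and 1.87), and kidney markers to 0.38 and 1.43 (Aqp2 0.38 and 0.91, Kap 0 and 0.36, Lrp2 0 and 0.10), with Umod and Slc12a1 at 0 in both.

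The quantifiers were then compared for all detected members, with kallisto TPM rescaled to the genes that both tables list. No member differed by 1.5-fold or more in the same direction in both libraries, which 2.71% of coding genes did (336 of 12381). The median of kallisto over RSEM was 0.856 and 0.843 for the 34 members and 0.882 and 0.887 for the coding genes, so both groups lay below 1. Abcb1b stood below these medians at 0.756 and 0.7505, and Abcb1a above them at 1.11 and 1.02, which is the direction of the lower kallisto ratio of the pair. Abcc5, at 0.648 and 0.671, and Abcg4, at 1.35 and 1.32, were the outermost members in replicate 2. Abcd2 had 0.480 in replicate 1, where it was low, and 0.732 in replicate 2.

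**Figure D4:**
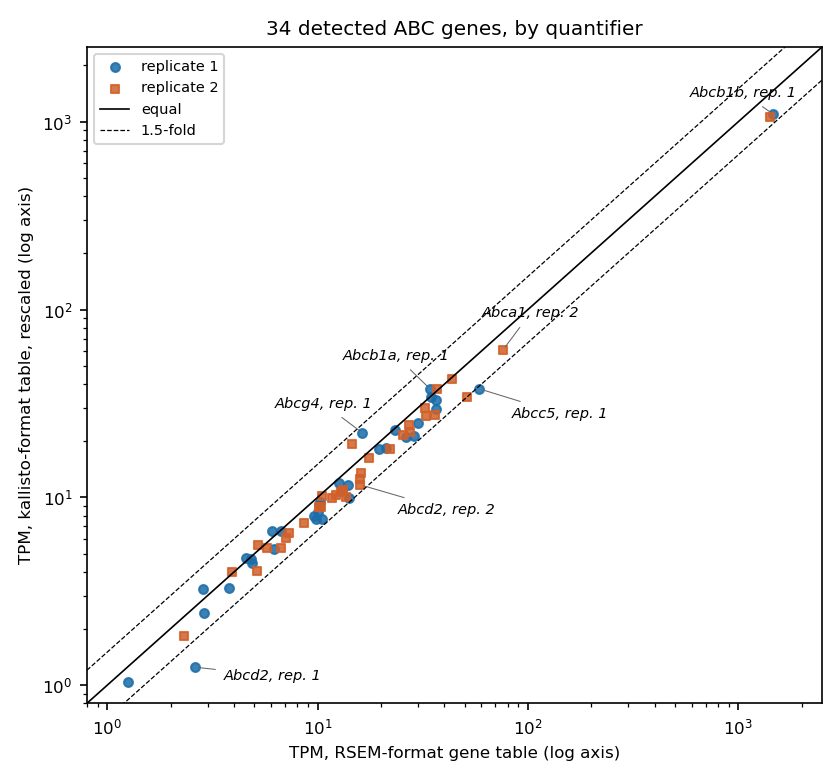
TPM of the 34 detected members in the RSEM-format gene table (horizontal, log axis) against rescaled TPM of the kallisto-format table (vertical, log axis), with a solid line at equality and dashed lines at 1.5-fold. Most points lie just under the solid line, and only Abcd2 at 0.480 and Abcc5 at 0.648, both in replicate 1, fall under the lower dashed line.

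The leading transcript rarely changed. Among the 204 annotated transcripts of the 34 detected members, the transcript with the most RSEM counts was the same in both libraries for 33 members. It was the same in both libraries and by both quantifiers for 32. The exceptions were Abca7, which changed between libraries, and Abca3, which changed with the quantifier. Every leading transcript was protein-coding, and in 17 members it held at least 90% of the counts in both libraries. In 13 members, transcripts under 1000 bases took at least 20% of the TPM in both libraries, so their gene-level TPM rests in part on short models. Sharing of 31-base words with other genes was under 5% in 42 of 50 members, of which 11 shared none. The 8 above were Abcb6, Abcb1a, Abcb1b, Abca3 at 12.1%, Abcb10 at 9.12%, Abcf2 at 8.94%, Abce1 at 5.59% and Abca8b.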

How the data were processed

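RNA-seq of adrenal glands from 2 animals of 1 group was analysed from the deposited gene and transcript tables. The gene tables hold expected counts, estimated from a transcriptome alignment and not normalized, with TPM computed by the authors over all entries of a table, per the file headers and the text accompanying the files. The transcript tables add each transcript's percent of the gene TPM, as deposited by the authors. Posterior SDs of counts and credibility bounds of TPM, treated as signal values, were deposited beside them, per the file headers. A kallisto-format table per library gives estimated counts and TPM, per the file headers. Per the labels the build is mm10 with GENCODE M21; versions of the programs were not given in the sources used here. Both strain genomes were quantified on this reference, so no value separates the alleles.

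Annotated genes held 29994901 and 33987434 expected counts, and 0.243% and 0.238% of counts lay on spike-ins and other entries, which were left out. Counts were rounded for folds and scaled with the TMM factors of edgeR 4.0.16. Size factors of DESeq2 1.42.0 served as an alternative, both in R 4.3.3, and scripts were tested on simulated data. Python 3.11.15, with scipy 1.17.1 for exact intervals and Biopython 1.88 for coding alignments, made the other values. A count of 0 was read as up to 3 counts. Kallisto TPM were summed by gene and rescaled to genes in both tables. Words of 31 bases were compared on both strands over GENCODE M21 transcripts. Promoters came from RefSeq, GRCm38.p6, whose table held 38 of the 50 members.

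Values are given for the 4 members of each subfamily with the highest mean TPM, for Abcb1b, Abca1 and Abcg1, for members called between the animals and for close paralogues, and for the 3 genes of each partner or marker list with the highest mean TPM. Other genes, such as Abcc3 at 1.5-fold, were named after their values were seen. Values of a few members and partner genes are not reported here, though all counts and sums include them. Members and lists were chosen with earlier results of these data known. Alternatives covered thresholds, scaling, quantifier, posterior means, pseudocount and leaving out each animal.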

Additional observations from a re-analysis of the deposited data

How the results depend on the processing

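No paired analysis was possible because the labels give 1 group only. The number of detected members was 34 without either animal, at 0.5 TPM, by kallisto and by posterior means, 26 at 5 TPM and 36 with TPM rescaled to nuclear coding genes. The share of Abcb1b in the family was 71.1%, ranged from 68.9 to 73.4 without 1 animal, and was 65.3 by expected counts, which are not divided by length. The ratio of Abcb1b to Abcb1a was 40.6, ranged from 38.6 to 42.6 without 1 animal, and was 28.7 by kallisto, 28.0 by expected counts, 30.6 on full-length transcripts by RSEM and 33.5 by kallisto; the 2 full-length values were added after seeing the data. Members differing between the animals numbered 3 (Abcc2, Abcd2 and Abcg3) with an average of 10 or more counts, 3 without a count minimum and 5 at 1.5-fold, against 1, and stayed 1 (Abcd2) under every other scaling and quantifier tried. The share of coding genes called was not computed under the lowered count minimums, so those counts of 3 have no background. Abcc2, with 9 and 24 counts, reached an average of 10 only through replicate 2, where it was high. The log2 ratio of Abcd2 ran from 2.70 to 2.79, and the median member ratio from 0.08 to 0.20. Scaling by spike-ins moved the coding median to 0.09. Of 190 single-member ratios under 5 settings, 179 moved by less than their counting interval, 11 moved further and 0 of the called values reversed; the uncalled ratios of 3 members changed sign. Members with a quantifier gap numbered 0 to 2 without 1 animal, an alternative added after seeing the data, with Abcc5 and Abcd2 past 1.5-fold in replicate 1 alone. The differing members and their median have no value without either animal. Precision is limited by 2 animals for every level and by counts for the 7 members at 3 counts or fewer.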
